A study of Mus musculus with 8 samples.

Results

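Accessible chromatin was examined at 48 genes of the actin cytoskeleton and of cell motility in mouse bone marrow progenitor cells. The members were a list of genes that included those for actins, monomer-binding proteins, nucleators, crosslinkers, myosins, GTPase regulators and membrane linkers. The list's rule uses no measured value, but it was drawn up with earlier results of these data known. A member's regions were those whose nearest RefSeq protein-coding gene within 50 kb was that gene. This gave 301 of the 61196 regions counted in the series, at 47 of the 48 members. Pfn1, the profilin gene, had no linked region, because the region that overlaps it also overlaps Eno3 and was linked to that gene.

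The assay was ATAC-seq, in which the Tn5 transposase cuts open DNA and tags it for sequencing. The 8 libraries fall into 4 sorted groups of 2, which the labels name GMP-MoP, proNeu2, proNeu1 and cMoP. Each tube held 5000 sorted progenitor cells. Strain, genotype, age, treatment, sort gates and the number of animals are not given for any group. Libraries are labelled as biological replicates, and p-values measure only the spread between them, which may be partly technical. The series title sets GMP-MoP on a route out of proNeu1, so GMP-MoP was compared with cMoP and with proNeu1, proNeu1 with cMoP, and proNeu2 with proNeu1.

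Actin filaments grow from monomers that profilin and thymosins hold ready. The Arp2/3 complex, switched on by WASP and WAVE proteins, builds branched networks at the leading edge, while formins and Ena/VASP proteins lengthen unbranched filaments. Myosins, crosslinkers and membrane linkers turn the filaments into force and shape. Blood cell progenitors carry many of these genes in haematopoietic forms, such as Was, Coro1a, Dock2 and Myo1f, on which neutrophils and monocytes depend for crawling and phagocytosis.

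Library totals over all regions ran from 1388525 to 1907810 counts, and member regions took 0.535 and 0.552% of them in GMP-MoP, 0.649% in both proNeu2 libraries, 0.61 and 0.629% in proNeu1, and 0.553 and 0.56% in cMoP. Levels are CPM, counts scaled to a fixed library size with TMM factors, and the 2 values given for a group are its 2 libraries. The neutrophil marker list was highest in the proNeu groups and the monocyte and dendritic cell lists in cMoP, and their part in the results on actin genes was not tested. Regions of 9 neutrophil marker genes summed to 498 to 521 CPM in GMP-MoP, 1149 to 1160 in proNeu2, 936 to 1022 in proNeu1 and 382 to 406 in cMoP. Regions of 7 monocyte marker genes summed to 573 to 651, 458 to 459, 469 to 498 and 698 to 746 CPM in the same groups, and those of 6 dendritic cell genes to 462 to 479, 337 to 343, 364 to 401 and 582 to 592 CPM. B cell, T and NK cell, erythroid and megakaryocyte, and mast cell, basophil and eosinophil lists each stayed between 54.3 and 173 CPM in every library. Counts of the proNeu2 pair varied only slightly beyond Poisson error (chi-square per degree of freedom 1.03, p = 0.000108), and both were kept as samples.

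Of the 301 member regions, 48 were start regions, meaning that they cover or lie within 1 kb of a RefSeq gene start, 13 lay at other gene ends, 153 in gene bodies and 87 outside the gene. Start regions made up 15.9% of member regions, against 18.4% of all linked regions, and gene bodies 50.8% against 44.8%. A start region was found at 42 members. Promoter windows of RefSeq (GRCm38.p6, from 250 bases before to 50 bases after each start) were matched for 44 members. The reference gave no start for the other 4, Actb, Rac1, Nckap1l and Diaph1. None of their regions counts as a start region, and their promoters were not searched for motifs. The 4 windows shown here include those of the 2 members, among these 44, with a CArG box. Serum response factor binds this site at many actin genes. The others belong to the members whose start regions differed most in either direction between proNeu1 and cMoP. Capitals mark every match, on either strand, to a CArG box or a GC box (GGGCGG), and the sequences read 5′ to 3′ in the direction of transcription.
Actg1 (chr11:120348446-120348745, minus strand): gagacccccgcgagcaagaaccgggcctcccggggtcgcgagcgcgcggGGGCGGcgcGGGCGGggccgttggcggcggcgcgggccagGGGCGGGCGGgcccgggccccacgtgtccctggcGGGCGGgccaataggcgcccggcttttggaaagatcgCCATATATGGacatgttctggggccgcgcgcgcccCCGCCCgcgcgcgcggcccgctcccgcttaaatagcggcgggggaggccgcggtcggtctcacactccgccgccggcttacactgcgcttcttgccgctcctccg
Vcl (chr14:20929148-20929447, plus strand): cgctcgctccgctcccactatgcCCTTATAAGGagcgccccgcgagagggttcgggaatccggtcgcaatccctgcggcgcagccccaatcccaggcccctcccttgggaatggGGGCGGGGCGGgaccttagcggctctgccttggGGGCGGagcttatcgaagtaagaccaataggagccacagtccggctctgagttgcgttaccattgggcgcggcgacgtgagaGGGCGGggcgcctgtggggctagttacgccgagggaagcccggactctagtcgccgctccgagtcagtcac
Actn1 (chr12:80260314-80260613, minus strand): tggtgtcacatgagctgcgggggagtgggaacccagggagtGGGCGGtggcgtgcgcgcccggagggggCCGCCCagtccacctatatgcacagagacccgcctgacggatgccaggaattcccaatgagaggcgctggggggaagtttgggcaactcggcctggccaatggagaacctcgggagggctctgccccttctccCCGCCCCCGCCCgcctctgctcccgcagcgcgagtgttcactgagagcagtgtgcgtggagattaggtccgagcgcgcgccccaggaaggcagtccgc
Cd2ap (chr17:42876375-42876674, minus strand): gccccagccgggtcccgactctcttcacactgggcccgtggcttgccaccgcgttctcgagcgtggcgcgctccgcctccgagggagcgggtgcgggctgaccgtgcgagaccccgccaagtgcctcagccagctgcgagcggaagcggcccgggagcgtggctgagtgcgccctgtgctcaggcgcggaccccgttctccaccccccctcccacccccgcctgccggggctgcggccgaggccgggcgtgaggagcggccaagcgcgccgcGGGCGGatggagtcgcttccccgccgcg
The CArG box of Actg1 began 90 bases before the start, and that of Vcl 227 bases before it. Both sequences match on each strand, and neighbouring GC boxes overlap in both promoters. Of all 21263 promoter windows of protein-coding genes, 1.52% held a CArG box, against 2 of the 60 windows of members. GC boxes stood in 46.2% of all windows and in 41 of the 60. The other motifs searched were PU.1 (GAGGAAGT), in 3.13% of all windows and in those of Arpc1b, Elmo1, Fmnl1, Rhog and Vav1, the ETS core (CCGGAAGT), in 5.15% and in those of Actr2, Actr3 and Arpc3, RUNX (TGTGGTTT), in 1.61% and in that of Was, and C/EBP (TTGCGCAA), in 0.221% and in no member. A match is a run of letters and not a measured site.

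Summed over members as CPM scaled with TMM, actin gene regions were more open in both proNeu groups than in GMP-MoP and cMoP, at starts and elsewhere. The size of the difference depended on the scaling. In proNeu1 against cMoP, the median log2 fold change over tested member regions was 0.18 with TMM and 0.08 with total counts. The median over all tested regions was 0.02 and -0.08 under the same scalings. With offsets fitted by loess across abundance, the medians were 0.07 over member regions and 0.01 over all. The order of the sums under other scalings was not tested. Member regions together held 5561 and 5200 CPM in GMP-MoP, 7050 and 7029 in proNeu2, 6546 and 6709 in proNeu1 and 5743 and 5537 in cMoP. Start regions summed to 2072 and 1779 CPM in GMP-MoP, 2990 and 2986 in proNeu2, 2740 and 2743 in proNeu1 and 2102 and 1922 in cMoP. The remaining member regions summed to 3490 and 3421, 4060 and 4043, 3806 and 3966, and 3641 and 3615 CPM in the same groups. They include every region of Actb, Rac1, Nckap1l and Diaph1, for which no gene start was given. Start regions of all genes moved likewise, holding 41.4 and 39% of all counts in GMP-MoP, 46 and 45.6% in proNeu2, 45.5 and 45% in proNeu1 and 39.7 and 37.1% in cMoP. The part of this genome-wide shift in the values of members was not tested. In bulk chromatin, fewer cells with an open region and a less open region in each cell cannot be told apart.

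**Figure D1:**
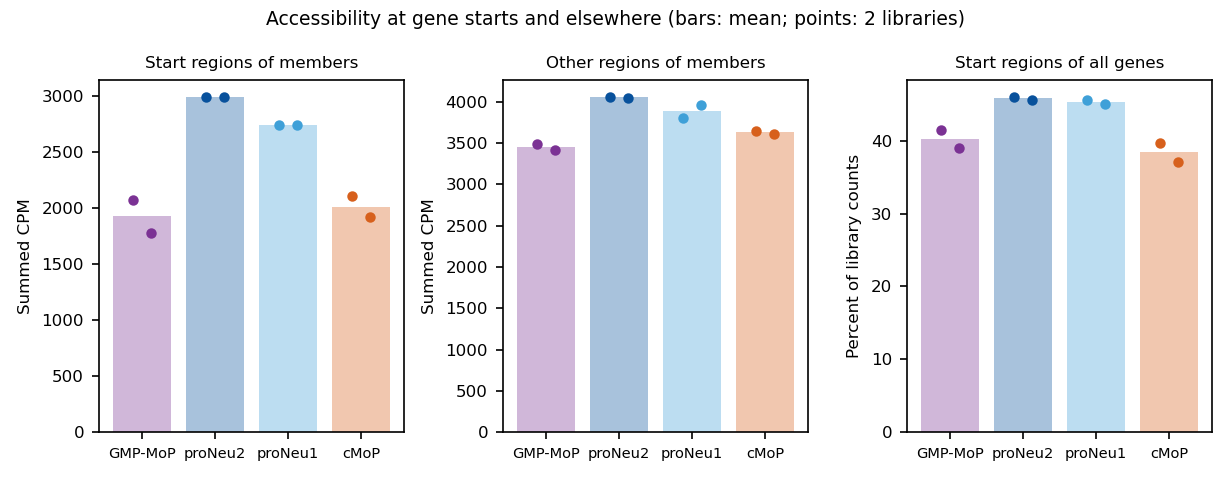
Summed CPM of member start regions (left) and of other member regions (middle), and the percent of library counts in start regions of all genes (right), by group. Bars are means and points the 2 libraries. Both proNeu groups lie above GMP-MoP and cMoP in every panel, with member start regions at 2740 to 2990 CPM in proNeu libraries.

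Each region was tested with edgeR's quasi-likelihood F test, adjusted by Benjamini-Hochberg over 47506 tested regions, and called at an adjusted p under 0.05. Of the 301 member regions, 255 passed the filter on low counts, and each of the 47 members kept at least 1. In proNeu1 against cMoP, 77 of the 255 were higher (30.2%) and 48 lower (18.8%). Over all tested regions the background was 20.6% higher and 21.9% lower. The median log2 fold change was 0.18 over member regions and 0.02 over all. In GMP-MoP against proNeu1, 22 (8.63%) were higher and 58 (22.7%) lower, against a background of 11.6% higher and 12.5% lower. Median log2 fold changes were -0.16 for members and 0.01 for all regions. In GMP-MoP against cMoP, 7 were higher (2.75%) and 9 lower (3.53%), beside 1.98% and 3.47% of all regions, which is near the background. In proNeu2 against proNeu1, edgeR called no member region in either direction, and 0.00842% of all regions were higher and 0.0674% lower. DESeq2 also called 0 member regions there, and 20 of the 255 had an unadjusted edgeR p under 0.05. These comparisons share libraries, so their counts are not independent of each other. In all, 135 of the 255 member regions, at 46 members, were called in at least 1 comparison. The same count was not taken over all regions or genes. In proNeu1 against cMoP alone, 42.4% of all tested regions and 49% of member regions were called.

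With total counts in place of TMM, GMP-MoP against proNeu1 gave 29 member regions higher and 45 lower, and with loess offsets, 8 were higher and 5 lower in GMP-MoP against cMoP. Without GMP-MoP replicate 2, GMP-MoP against proNeu1 gave 33 calls, without proNeu1 replicate 1 it gave 50 and without proNeu1 replicate 2 it gave 51, in place of 80. In GMP-MoP against cMoP the 16 calls became 7 on leaving out GMP-MoP replicate 1, 10 on leaving out GMP-MoP replicate 2, 8 for cMoP replicate 1 and 9 for cMoP replicate 2. DESeq2 called 62 member regions in proNeu1 against cMoP, 19 in GMP-MoP against proNeu1 and 1 in GMP-MoP against cMoP.

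Of 46 tested start regions of members, proNeu1 against cMoP gave 25 higher and 2 lower. Over all 9430 tested start regions the shares were 35.2% and 7.46%. In GMP-MoP against proNeu1, 0 were higher and 24 lower, while 3.84% of all start regions were higher and 25.9% were lower. Between GMP-MoP and cMoP no start region of a member was called, with 3 at an unadjusted p under 0.05 and 0 called by DESeq2, and the shares over all start regions were likewise small, at 0.626% higher and 0.795% lower. Offsets fitted by loess across abundance left 11 higher and 3 lower in proNeu1 against cMoP, and 2 higher and 11 lower in GMP-MoP against proNeu1. Without GMP-MoP replicate 2, 9 of the start calls in GMP-MoP against proNeu1 were made. DESeq2 called 14 start regions in the first of these comparisons and 8 in the second.

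**Figure D2:**
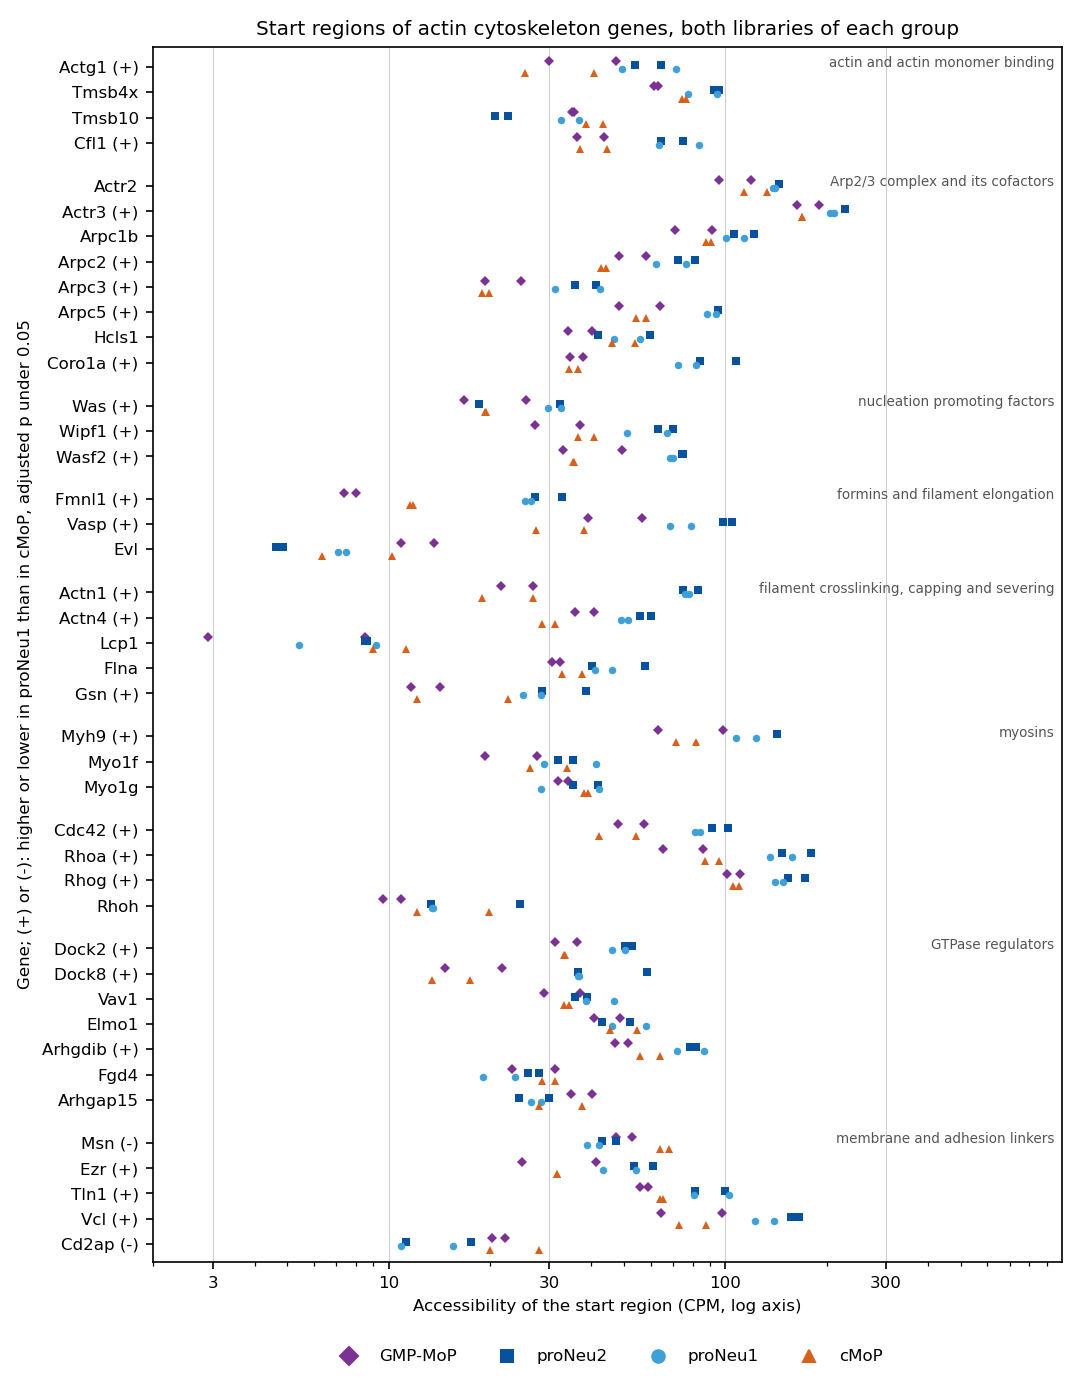
CPM (log axis) of the start region of each of 42 members in both libraries of the 4 groups, with genes ordered by role. A plus or minus after a name marks a start region higher or lower in proNeu1 than in cMoP at an adjusted p under 0.05, as at Actn1 (75.8 and 78 CPM in proNeu1, 26.9 and 19 in cMoP) and at Msn.

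Both cytoplasmic actin genes were more accessible in the proNeu groups. Of 22 tested regions of actin and monomer-binding genes, 9 (40.9%) were higher and 4 (18.2%) lower in proNeu1 against cMoP. The shares over all tested regions were 20.6% and 21.9%. In GMP-MoP against proNeu1, 3 (13.6%) were higher and 9 (40.9%) lower, beside 11.6% and 12.5% of all. Actb is the beta-actin gene, and its region of highest mean CPM covers an end of the gene (chr5:142905433-142907175), with 124 and 107 CPM in GMP-MoP, 226 and 218 in proNeu2, 200.4 and 191 in proNeu1 and 131 and 106 in cMoP. All proNeu libraries lay above all GMP-MoP and cMoP libraries, and the region was higher in proNeu1 than in cMoP (log2 fold change 0.72, SE 0.13, edgeR adjusted p = 4.07e-07) and lower in GMP-MoP than in proNeu1 (log2 fold change -0.76, SE 0.13, edgeR adjusted p = 1.23e-06). A region 18168 bp outside Actb (chr5:142926144-142927039), picked out after its values were seen, had 6.54 and 7.37 CPM in GMP-MoP, 21.9 and 19.9 in proNeu2, 19.1 and 23.7 in proNeu1 and 7.53 and 7.92 in cMoP. Here too the proNeu libraries lay above the rest, with a log2 fold change of 1.47 (SE 0.33, edgeR adjusted p = 9.83e-05) in proNeu1 against cMoP. All the Actb calls given here stood under every alternative run for them.

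At Actg1, which encodes gamma-actin, all 4 tested regions were higher in proNeu1 than in cMoP and all 4 lower in GMP-MoP than in proNeu1. The start region, whose promoter is printed above (chr11:120348111-120349062), had 47.2 and 30.1 CPM in GMP-MoP, 64.5 and 53.8 in proNeu2, 71.5 and 49.5 in proNeu1 and 40.9 and 25.3 in cMoP. Both proNeu1 libraries lay above those of cMoP and of GMP-MoP, with log2 fold changes of 0.87 (SE 0.20, edgeR adjusted p = 9.36e-05) in proNeu1 against cMoP and -0.67 (SE 0.20, edgeR adjusted p = 0.00634) in GMP-MoP against proNeu1. The call in GMP-MoP against proNeu1 ended without GMP-MoP replicate 2 (0.342), without proNeu1 replicate 1 (0.285), with loess offsets (0.113) or in DESeq2 (0.225), where each value in brackets is the adjusted p under that alternative, here and for the calls that follow. Cfl1 encodes cofilin, which severs and depolymerises old filaments. Its single region, at the start (chr19:5490215-5491727), had 43.6 and 36.3 CPM in GMP-MoP, 64.5 and 75 in proNeu2, 63.7 and 83.4 in proNeu1 and 44.6 and 37 in cMoP. The proNeu levels lay above the rest in all libraries, and Cfl1 was higher in proNeu1 than in cMoP (log2 fold change 0.85, SE 0.18, edgeR adjusted p = 2.25e-05) and lower in GMP-MoP than in proNeu1 (log2 fold change -0.90, SE 0.19, edgeR adjusted p = 7.34e-05).

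The thymosin genes, whose products sequester actin monomers, had few calls at their starts. At Tmsb10, 3 of 7 regions were lower in proNeu1 than in cMoP and none higher. One of them, chr6:72954605-72955440, also named after its values were seen, had 16.7 and 15.3 CPM in GMP-MoP, 3.04 and 5.97 in proNeu2, 7.79 and 9.49 in proNeu1 and 24.7 and 24.3 in cMoP. All proNeu libraries lay below all others there, with a log2 fold change of -1.49 (SE 0.32, edgeR adjusted p = 4.48e-05) in proNeu1 against cMoP. The Tmsb10 start region was not called in any comparison, with 35.6 and 35.1 CPM in GMP-MoP, 20.7 and 22.6 in proNeu2, 36.8 and 32.5 in proNeu1 and 38.7 and 43.3 in cMoP. Tmsb4x, on the X chromosome, had 1 region higher and 1 lower of 4 in proNeu1 against cMoP, and its start region had 63.2 and 61.2 CPM in GMP-MoP, 95.5 and 92.3 in proNeu2, 94.2 and 77.3 in proNeu1 and 76.3 and 74.4 in cMoP. That start was called lower in GMP-MoP than in proNeu1 (log2 fold change -0.46, SE 0.16, edgeR adjusted p = 0.0265), a call that ended without GMP-MoP replicate 2 (0.134), without proNeu1 replicate 1 (0.301), with total counts (0.104), with loess offsets (0.561), at a minimum count of 30 (0.136), in DESeq2 (0.232) or from the 2 groups alone (0.08).

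Among the Arp2/3 complex and its cofactors, 10 of 32 tested regions (31.25%) were higher and 6 (18.75%) lower in proNeu1 against cMoP. All tested regions gave 20.6% and 21.9%. For GMP-MoP against proNeu1, 1 (3.125%) was higher and 8 (25%) lower, beside 11.6% and 12.5% of all. Coro1a is the gene of a haematopoietic coronin that binds filaments and Arp2/3, and its start region (chr7:126703822-126705213) had 37.8 and 34.6 CPM in GMP-MoP, 108 and 84.3 in proNeu2, 72.2 and 82.1 in proNeu1 and 36.5 and 34.3 in cMoP. The proNeu libraries did not overlap the others. The log2 fold change was 1.12 (SE 0.18, edgeR adjusted p = 3.65e-08) in proNeu1 against cMoP and -1.10 (SE 0.19, edgeR adjusted p = 1.11e-06) in GMP-MoP against proNeu1, and both calls stood under every alternative run for them. Arpc5, a small subunit of the complex, had 63.9 and 48.2 CPM in GMP-MoP, 94.9 and 94.9 in proNeu2, 88.5 and 93.6 in proNeu1 and 58.1 and 54.4 in cMoP at its start. This start was higher in proNeu1 than in cMoP (log2 fold change 0.70, SE 0.16, edgeR adjusted p = 0.00013) and lower in GMP-MoP than in proNeu1 (log2 fold change -0.72, SE 0.17, edgeR adjusted p = 0.000415). The first call ended with loess offsets (0.0589) and the other without GMP-MoP replicate 2 (0.067).

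Starts of Arpc2 and Arpc3, further subunits, were also higher in proNeu1 than in cMoP, with log2 fold changes of 0.67 (SE 0.18, edgeR adjusted p = 0.000841) and 0.92 (SE 0.24, edgeR adjusted p = 0.000729). The Arpc2 call ended with loess offsets (0.103) or in DESeq2 (0.0508), and the Arpc3 call in DESeq2 (0.0559). The start of Actr3, the gene of the actin-like subunit Arp3, had the highest mean CPM of all member regions, with 189.5 and 164 CPM in GMP-MoP, 227 and 226 in proNeu2, 211 and 204 in proNeu1 and 169 and 169 in cMoP. Its log2 fold change in proNeu1 against cMoP was 0.30 (SE 0.12, edgeR adjusted p = 0.0352), and loess offsets turned it to -0.15. The call ended without proNeu1 replicate 1 (0.0982), without proNeu1 replicate 2 (0.0543), without cMoP replicate 1 (0.0687), without cMoP replicate 2 (0.0808), with RLE factors (0.0826), with total counts (0.132), with loess offsets (0.211), at a minimum count of 30 (0.454) or in DESeq2 (0.218). Starts of Actr2, Arpc1b and Hcls1 were not called in proNeu1 against cMoP. At Actr2, the gene of Arp2, the levels were 119 and 95.8 CPM in GMP-MoP, 145 and 145 in proNeu2, 141 and 139 in proNeu1 and 133 and 114 in cMoP, and the region was lower in GMP-MoP than in proNeu1 (log2 fold change -0.39, SE 0.14, edgeR adjusted p = 0.0254), a call that ended without GMP-MoP replicate 2 (0.343), without proNeu1 replicate 1 (0.106), without proNeu1 replicate 2 (0.0954), with total counts (0.112), with loess offsets (0.806), at a minimum count of 30 (0.147), in DESeq2 (0.226) or from the 2 groups alone (0.0922).

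Among nucleation promoting factors, 5 of 24 regions (20.8%) were higher and 4 (16.7%) lower in proNeu1 against cMoP. These shares stand near the 20.6% and 21.9% of all tested regions. GMP-MoP against proNeu1 gave 4 (16.7%) higher and 3 (12.5%) lower, beside 11.6% and 12.5% of all. Wasf2, which encodes the WAVE2 protein, had 49.4 and 32.9 CPM in GMP-MoP, 74.2 and 75 in proNeu2, 70.1 and 68.5 in proNeu1 and 35.5 and 35.4 in cMoP at its start (chr4:133129750-133131075). Its proNeu levels lay above all others, with a log2 fold change of 0.97 (SE 0.18, edgeR adjusted p = 3.61e-06) in proNeu1 against cMoP. Against proNeu1, GMP-MoP gave -0.78 (SE 0.19, edgeR adjusted p = 0.000672), and this call ended without GMP-MoP replicate 2 (0.14) or in DESeq2 (0.0685). Was, the gene of the Wiskott-Aldrich syndrome protein, lies on the X chromosome. Its region of highest mean CPM, 6111 bp outside the gene (chrX:8096602-8097423), had 21.8 and 20.4 CPM in GMP-MoP, 41.4 and 33.9 in proNeu2, 29 and 36.6 in proNeu1 and 20.4 and 16.9 in cMoP. The Was region was higher in proNeu1 than in cMoP (log2 fold change 0.82, SE 0.25, edgeR adjusted p = 0.00378), a call that ended without proNeu1 replicate 2 (0.0827), without cMoP replicate 2 (0.0509) or in DESeq2 (0.107).

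Wipf1, whose product WIP holds WASP in its stable form, had regions of both kinds. Its start (chr2:73484929-73486970) had 37 and 27.2 CPM in GMP-MoP, 63.2 and 69.7 in proNeu2, 51 and 67.1 in proNeu1 and 36.5 and 40.6 in cMoP. That region was higher in proNeu1 than in cMoP (log2 fold change 0.62, SE 0.19, edgeR adjusted p = 0.00436), a call that ended without proNeu1 replicate 2 (0.152), with loess offsets (0.172), at a minimum count of 30 (0.052) or in DESeq2 (0.124). Within the gene body, chr2:73526428-73527340 had 13.8 and 10.8 CPM in GMP-MoP, 2.43 and 0 in proNeu2, 2.83 and 1.36 in proNeu1 and 18.8 and 17.4 in cMoP. There the proNeu libraries lay below all others. This second region was lower in proNeu1 than in cMoP (log2 fold change -3.08, SE 0.49, edgeR adjusted p = 2.55e-08) and higher in GMP-MoP than in proNeu1 (log2 fold change 2.50, SE 0.55, edgeR adjusted p = 0.000183), under every alternative run. Nckap1l, the gene of the haematopoietic WAVE complex subunit HEM1, had 47.9 and 47.6 CPM in GMP-MoP, 75.4 and 64.4 in proNeu2, 70.1 and 54.3 in proNeu1 and 50.5 and 49.1 in cMoP at its region of highest mean CPM, which was not called. Its other 2 tested regions, both in the gene body, were lower in proNeu1 than in cMoP. One (chr15:103462286-103463151), picked out after its values were seen, had 15.2 and 9.64 CPM in GMP-MoP, 6.69 and 3.319 in proNeu2, 7.08 and 4.75 in proNeu1 and 15.6 and 12.7 in cMoP. All proNeu libraries lay below all others (log2 fold change -1.25, SE 0.40, edgeR adjusted p = 0.00708 for proNeu1 against cMoP), and the call ended without proNeu1 replicate 2 (0.129), without cMoP replicate 1 (0.0681) or in DESeq2 (0.117). The other (chr15:103486521-103487154) had 5.08 and 5.1 CPM in GMP-MoP, 0.608 and 0.664 in proNeu2, 0.708 and 1.36 in proNeu1 and 10.8 and 7.92 in cMoP. With 3 counts in proNeu1 and 35 in cMoP, it was 8.82-fold lower in proNeu1 (95% exact counting interval 2.78 to 44.8, edgeR adjusted p = 0.000109), a call that ended with loess offsets (0.415), where the log2 fold change was -0.95 in place of -3.07. It was also higher in GMP-MoP than in proNeu1 (4.84-fold, 1.38 to 25.9, edgeR adjusted p = 0.0356), and this call ended in DESeq2, with loess offsets or without any 1 of the GMP-MoP, proNeu1 and cMoP libraries (adjusted p 0.052 to 0.515).

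The formin and Ena/VASP group had 8 of 24 regions (33.3%) higher and 2 (8.33%) lower in proNeu1 against cMoP. All tested regions gave 20.6% and 21.9%. It had 1 (4.17%) higher and 5 (20.8%) lower in GMP-MoP against proNeu1, beside 11.6% and 12.5% of all. Fmnl1, a leukocyte formin, was higher in proNeu1 at 3 of 4 regions. At its start (chr11:103170596-103171514) it had 7.99 and 7.37 CPM in GMP-MoP, 32.8 and 27.2 in proNeu2, 25.5 and 26.4 in proNeu1 and 11.8 and 11.6 in cMoP. Both GMP-MoP libraries lay below those of the other groups, and the log2 fold change was -1.76 (SE 0.33, edgeR adjusted p = 1.12e-05) in GMP-MoP against proNeu1 and 1.14 (SE 0.29, edgeR adjusted p = 0.000478) in proNeu1 against cMoP. Vasp, the gene of a filament elongation factor at the leading edge, was higher in proNeu1 at all 3 regions, and its start (chr7:19271323-19272793) had 56.6 and 39.1 CPM in GMP-MoP, 98.5 and 105 in proNeu2, 68.7 and 79.3 in proNeu1 and 38.2 and 27.4 in cMoP. The GMP-MoP libraries lay between the proNeu and cMoP libraries. At this start the log2 fold change was 1.18 (SE 0.19, edgeR adjusted p = 2.03e-08) in proNeu1 against cMoP, and 0.52 in GMP-MoP against cMoP did not pass the test (edgeR adjusted p = 0.106). Diaph1, the formin mDia1, had 102 and 82.8 CPM in GMP-MoP, 108 and 111 in proNeu2, 82.9 and 94.3 in proNeu1 and 79 and 70.2 in cMoP at its region of highest mean CPM, with no call. Of its 9 regions, 1 was higher and 2 lower in proNeu1 against cMoP, and 1 was higher and 0 lower in GMP-MoP against proNeu1. Summed over its regions, Diaph1 had 256 and 271 summed CPM in GMP-MoP, 206 and 225 in proNeu2, 195 and 211 in proNeu1 and 244 and 248 in cMoP. The proNeu libraries lay below the others. The sum was higher in GMP-MoP than in proNeu1 (log2 fold change 0.37, SE 0.10, edgeR adjusted p = 0.00521), a call that ended without GMP-MoP replicate 2 (0.0652) or without proNeu1 replicate 1 (0.0679). It was lower in proNeu1 than in cMoP (log2 fold change -0.28, SE 0.10, edgeR adjusted p = 0.0263), a call that ended with loess offsets, in DESeq2 or without any 1 of the proNeu2, proNeu1 and cMoP libraries (adjusted p 0.0509 to 0.216). Evl, another Ena/VASP gene, had 1 of 8 regions called higher and none lower in proNeu1 against cMoP.

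Of the crosslinking, capping and severing genes, 10 of 36 regions (27.8%) were higher and 4 (11.1%) lower in proNeu1 against cMoP. The shares of all tested regions were 20.6% and 21.9%. GMP-MoP against proNeu1 gave 2 (5.56%) higher and 8 (22.2%) lower, beside 11.6% and 12.5% of all. Actn1 encodes alpha-actinin-1, which bundles filaments and ties them to adhesions. Its start region (chr12:80259195-80261088), whose promoter is printed above, had 26.9 and 21.5 CPM in GMP-MoP, 74.8 and 83 in proNeu2, 75.8 and 78 in proNeu1 and 26.9 and 19 in cMoP. The proNeu libraries did not overlap the others. It was higher in proNeu1 than in cMoP (log2 fold change 1.74, SE 0.20, edgeR adjusted p = 1.14e-14) and lower in GMP-MoP than in proNeu1 (log2 fold change -1.68, SE 0.20, edgeR adjusted p = 6.88e-12), and both calls stood under every alternative run.

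A gene-body region of Actn1 (chr12:80210498-80211649) was barely open outside the proNeu groups, at 1.45 and 2.83 CPM in GMP-MoP, 16.4 and 15.9 in proNeu2, 12.8 and 12.2 in proNeu1 and 1.61 and 0.528 in cMoP. The same 2 calls were made there, with log2 fold changes of 3.46 (SE 0.59, edgeR adjusted p = 1.75e-07) in proNeu1 against cMoP and -2.45 (SE 0.53, edgeR adjusted p = 0.000144) in GMP-MoP against proNeu1. Another region of this gene, 29204 bp outside it, had 2.9 and 1.13 CPM in GMP-MoP, 12.2 and 21.9 in proNeu2, 9.21 and 12.9 in proNeu1 and 2.15 and 1.58 in cMoP. There the log2 fold change in GMP-MoP against proNeu1 was -2.49 (SE 0.56, edgeR adjusted p = 0.000311), and the call ended without GMP-MoP replicate 2 (0.0506) or in DESeq2 (0.0524).

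Actn4, for the other non-muscle alpha-actinin, had 40.7 and 35.7 CPM in GMP-MoP, 60.2 and 55.8 in proNeu2, 48.9 and 51.5 in proNeu1 and 31.2 and 28.5 in cMoP at its start. Actn4 was higher in proNeu1 than in cMoP (log2 fold change 0.75, SE 0.20, edgeR adjusted p = 0.00121), a call that ended with loess offsets (0.0532) or in DESeq2 (0.0561), while GMP-MoP against proNeu1 gave -0.40 (edgeR adjusted p = 0.129). Flna is the X-linked gene of filamin A, and its region of highest mean CPM (chrX:74243417-74245215) had 41.4 and 47.6 CPM in GMP-MoP, 74.2 and 74.3 in proNeu2, 64.5 and 86.8 in proNeu1 and 66.1 and 64.4 in cMoP. Both GMP-MoP libraries lay below those of every other group. The log2 fold change was -0.76 (SE 0.18, edgeR adjusted p = 0.000561) in GMP-MoP against proNeu1 and -0.54 (SE 0.18, edgeR adjusted p = 0.0449) in GMP-MoP against cMoP. The first call ended without proNeu1 replicate 2 (0.103) or in DESeq2 (0.0522), and the second without any 1 of the 8 libraries (0.0677 to 0.245), with no low-count filter (0.0823), from the 2 groups alone (0.128) or in DESeq2 (0.676).

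In the same group, a gene-body region of Capg, a capping protein gene, had 1.45 and 3.97 CPM in GMP-MoP, 9.73 and 9.29 in proNeu2, 9.21 and 9.49 in proNeu1 and 1.61 and 1.06 in cMoP. Of 4 Capg regions 1 was higher and 1 lower in proNeu1 against cMoP. Capg was higher in proNeu1 than in cMoP at this region (log2 fold change 2.74, SE 0.62, edgeR adjusted p = 8.78e-05). Gsn encodes gelsolin, which severs and caps filaments. It had 2 of 11 regions higher and 2 lower in proNeu1 against cMoP, and its start had 11.6 and 14.2 CPM in GMP-MoP, 28.6 and 38.5 in proNeu2, 28.3 and 25.1 in proNeu1 and 22.6 and 12.1 in cMoP. It was lower in GMP-MoP than in proNeu1 (log2 fold change -1.03, SE 0.29, edgeR adjusted p = 0.00462), a call that ended in DESeq2 (0.144). Lcp1, the leukocyte plastin gene, had 1 region higher and 1 lower of 7 in proNeu1 against cMoP. Its region of highest mean CPM, in the gene body, had 30.5 and 42 CPM in GMP-MoP, 40.7 and 34.5 in proNeu2, 27.6 and 36 in proNeu1 and 39.2 and 34.3 in cMoP, with no call.

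Called myosin regions were mostly higher in proNeu1. Of 18 tested, 9 (50%) were higher and 1 (5.56%) lower in proNeu1 against cMoP, beside 20.6% and 21.9% of all tested regions. In GMP-MoP against proNeu1, 0 were higher and 9 (50%) lower, beside 11.6% and 12.5% of all. The start of Myh9, for the heavy chain of non-muscle myosin IIA, had 98.8 and 62.9 CPM in GMP-MoP, 142 and 143 in proNeu2, 108 and 123 in proNeu1 and 81.7 and 71.3 in cMoP. Myh9 was higher in proNeu1 than in cMoP (log2 fold change 0.60, SE 0.15, edgeR adjusted p = 0.000372), a call that ended with loess offsets (0.215), and lower in GMP-MoP than in proNeu1 (log2 fold change -0.54, SE 0.15, edgeR adjusted p = 0.00378), a call that ended without GMP-MoP replicate 2 (0.401), without proNeu1 replicate 2 (0.0961), with loess offsets (0.254) or in DESeq2 (0.141).

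Myo1f is a long-tailed class I myosin of neutrophils and macrophages. A region 2546 bp outside it (chr17:33610310-33611127) had 3.63 and 2.83 CPM in GMP-MoP, 16.4 and 15.9 in proNeu2, 14.2 and 17.6 in proNeu1 and 2.15 and 1.06 in cMoP. All proNeu libraries lay above all others, with log2 fold changes of 3.26 (SE 0.51, edgeR adjusted p = 1.3e-08) in proNeu1 against cMoP and -2.29 (SE 0.46, edgeR adjusted p = 3.89e-05) in GMP-MoP against proNeu1, and both calls stood under every alternative run. The Myo1f start region itself, with 27.6 and 19.3 CPM in GMP-MoP, 35.3 and 31.9 in proNeu2, 29 and 41.4 in proNeu1 and 33.9 and 26.4 in cMoP, was not called in proNeu1 against cMoP. At Myo1g, a haematopoietic class I myosin, a region 1693 bp outside the gene (chr11:6522653-6523355), named after its values were seen, had 6.54 and 9.07 CPM in GMP-MoP, 0.608 and 3.98 in proNeu2, 4.25 and 8.14 in proNeu1 and 22 and 21.6 in cMoP. The cMoP libraries lay above the other 6. It was lower in proNeu1 than in cMoP (log2 fold change -1.80, SE 0.36, edgeR adjusted p = 1.29e-05) and in GMP-MoP than in cMoP (log2 fold change -1.45, SE 0.34, edgeR adjusted p = 0.00198), the second call ending without GMP-MoP replicate 1 (0.0556) or in DESeq2 (0.557).

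Rhoa drives contractility through its effector kinases, and its single region, at the start (chr9:108305583-108307259), had 85.7 and 65.2 CPM in GMP-MoP, 179 and 147 in proNeu2, 158 and 136 in proNeu1 and 95.7 and 87.1 in cMoP. The GMP-MoP libraries lay lowest. For Rhoa the log2 fold change was -0.98 (SE 0.15, edgeR adjusted p = 3.17e-08) in GMP-MoP against proNeu1 and 0.68 (SE 0.14, edgeR adjusted p = 1.15e-05) in proNeu1 against cMoP, the second call ending with loess offsets (0.0505). Cdc42, which controls polarity and filopodia, had 47.9 and 57.3 CPM in GMP-MoP, 102 and 91.6 in proNeu2, 81.5 and 84.1 in proNeu1 and 54.3 and 42.2 in cMoP at its start. Cdc42 was higher in proNeu1 than in cMoP (log2 fold change 0.78, SE 0.17, edgeR adjusted p = 4.16e-05) and lower in GMP-MoP than in proNeu1 (log2 fold change -0.64, SE 0.17, edgeR adjusted p = 0.00234), the second call ending with loess offsets (0.131) or in DESeq2 (0.0929). Rac1 drives lamellipodia, and the region at an end of the gene (chr5:143527167-143528623) had 61.7 and 45.9 CPM in GMP-MoP, 97.3 and 96.9 in proNeu2, 93.5 and 86.1 in proNeu1 and 66.1 and 51.2 in cMoP. Rac1 was higher in proNeu1 than in cMoP (log2 fold change 0.61, SE 0.16, edgeR adjusted p = 0.000775), a call that ended with loess offsets (0.167) or in DESeq2 (0.056).

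Rhog, which acts upstream of Rac, had 110.4 and 101 CPM in GMP-MoP, 154 and 172 in proNeu2, 140.2 and 148 in proNeu1 and 110.2 and 106 in cMoP at its start. Rhog was higher in proNeu1 than in cMoP (log2 fold change 0.42, SE 0.13, edgeR adjusted p = 0.00613), a call that ended with loess offsets (0.974), at a minimum count of 30 (0.109) or in DESeq2 (0.0995). Rhoh, a haematopoietic GTPase that does not hydrolyse GTP, had 18.1 and 20.4 CPM in GMP-MoP, 10.9 and 21.2 in proNeu2, 14.9 and 17.6 in proNeu1 and 26.9 and 26.4 in cMoP at its region of highest mean CPM. It was lower in proNeu1 than in cMoP (log2 fold change -0.71, SE 0.27, edgeR adjusted p = 0.0257), a call that ended without proNeu1 replicate 1 (0.192), without proNeu1 replicate 2 (0.0671), without cMoP replicate 1 (0.0894), without cMoP replicate 2 (0.0874) or in DESeq2 (0.191).

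Of 66 tested regions of GTPase regulators, 15 (22.7%) were higher and 17 (25.8%) lower in proNeu1 against cMoP, near the 20.6% and 21.9% of all tested regions. For GMP-MoP against proNeu1, 10 (15.2%) were higher and 5 (7.58%) lower, beside 11.6% and 12.5% of all. Dock8, an exchange factor for Cdc42, had 5 of 9 regions higher in proNeu1 and none lower, and its start (chr19:24998959-25000060) had 21.8 and 14.7 CPM in GMP-MoP, 58.4 and 36.5 in proNeu2, 36.8 and 36.6 in proNeu1 and 13.4 and 17.4 in cMoP. The proNeu libraries lay above the rest, with a log2 fold change of 1.25 (SE 0.25, edgeR adjusted p = 1.17e-05) in proNeu1 against cMoP. Set against proNeu1, GMP-MoP gave -1.04 (SE 0.25, edgeR adjusted p = 0.000919), and that call ended without GMP-MoP replicate 2 (0.101) or in DESeq2 (0.094). Vav1, the haematopoietic Rac exchange factor, had 1 region of 6 lower in proNeu1 than in cMoP, and its region of highest mean CPM had 60.3 and 51 CPM in GMP-MoP, 52.3 and 38.5 in proNeu2, 48.2 and 51.5 in proNeu1 and 52.7 and 38.5 in cMoP, with no call. Arhgap15, a Rac GTPase-activating protein, and Fgd4, a Cdc42 exchange factor, each had regions lower and none higher in proNeu1 against cMoP (2 of 10 and 1 of 5). Arhgdib encodes a leukocyte inhibitor that keeps GTPases inactive, and its start had 51.5 and 47 CPM in GMP-MoP, 78.4 and 81.6 in proNeu2, 86.4 and 71.9 in proNeu1 and 64 and 56 in cMoP. Arhgdib was lower in GMP-MoP than in proNeu1 (log2 fold change -0.69, SE 0.17, edgeR adjusted p = 0.00142), a call that ended without proNeu1 replicate 1 (0.0631), with loess offsets (0.085) or in DESeq2 (0.0734).

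Dock2 and Elmo1, which together activate Rac in migrating leukocytes, were among 15 members with called regions in both directions in proNeu1 against cMoP. The share of all genes with calls in both directions was not taken. Dock2, Elmo1 and Cd2ap were chosen for a full account after their values were seen. At Dock2, 6 of 10 tested regions were lower and 2 higher in proNeu1 against cMoP, and 5 were higher and none lower in GMP-MoP against proNeu1. The start region had 36.3 and 31.2 CPM in GMP-MoP, 52.9 and 50.5 in proNeu2, 50.3 and 46.1 in proNeu1 and 33.3 and 33.2 in cMoP. The Dock2 start was higher in proNeu1 than in cMoP (log2 fold change 0.53, SE 0.20, edgeR adjusted p = 0.0231), a call that ended without proNeu1 replicate 1 (0.102), without cMoP replicate 1 (0.0561), without cMoP replicate 2 (0.0662), with total counts (0.0661), with loess offsets (0.327), at a minimum count of 30 (0.159) or in DESeq2 (0.221).

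Inside Dock2, 4 regions between 5.2 and 21 kb past the start region were all lower in proNeu1 than in cMoP. The nearest (chr11:34778185-34778701) held 1 proNeu1 count in all, against 49 in cMoP, with 5.08 and 3.97 CPM in GMP-MoP, 1.22 and 1.33 in proNeu2, 0 and 0.678 in proNeu1 and 10.8 and 15.3 in cMoP. It was 37.1-fold lower in proNeu1 than in cMoP (95% exact counting interval 6.35 to 1493, edgeR adjusted p = 2.49e-08). GMP-MoP stood between them, 12.7-fold above proNeu1 (1.93 to 537, from 14 and 1 counts, edgeR adjusted p = 0.00841), a call that ended without proNeu1 replicate 1 (0.105), with loess offsets (0.196) or in DESeq2 (0.164). In GMP-MoP against cMoP the edgeR adjusted p was 0.02, and the call ended without any 1 of the GMP-MoP and cMoP libraries (0.0556 to 0.393), with loess offsets (0.518) or in DESeq2 (0.837). Such intervals cover counting error only, since sequenced copies of a fragment are not independent.

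The next Dock2 region, chr11:34773446-34774131, had 12.3 and 13.6 CPM in GMP-MoP, 1.22 and 2.65 in proNeu2, 4.25 and 2.04 in proNeu1 and 13.4 and 22.2 in cMoP. The proNeu libraries lay below all others. It was lower in proNeu1 than in cMoP (log2 fold change -2.49, SE 0.45, edgeR adjusted p = 7.81e-07) and higher in GMP-MoP than in proNeu1 (log2 fold change 2.04, SE 0.49, edgeR adjusted p = 0.000687), the second call ending in DESeq2 (0.0654). Then came chr11:34770937-34771992, with 24.7 and 22.1 CPM in GMP-MoP, 6.69 and 7.3 in proNeu2, 6.37 and 12.9 in proNeu1 and 23.6 and 20.1 in cMoP. There too the proNeu libraries lay below the rest, with a log2 fold change of -1.17 (SE 0.32, edgeR adjusted p = 0.00144) in proNeu1 against cMoP, a call that ended without proNeu1 replicate 1 (0.128) or in DESeq2 (0.0528).

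Elmo1 had 23 tested regions, of which 7 were higher and 7 lower in proNeu1 against cMoP. The start region was not called in any comparison and had 48.6 and 40.8 CPM in GMP-MoP, 52.3 and 43.1 in proNeu2, 58.1 and 46.1 in proNeu1 and 54.8 and 45.4 in cMoP. A region 2.8 kb past it (chr13:20093257-20094235) had 32.7 and 37.4 CPM in GMP-MoP, 48 and 65.7 in proNeu2, 54.5 and 57.6 in proNeu1 and 17.7 and 15.3 in cMoP. GMP-MoP libraries lay between the proNeu and cMoP libraries. All 3 tests passed, with log2 fold changes of 1.76 (SE 0.22, edgeR adjusted p = 5.62e-12) in proNeu1 against cMoP, 1.09 (SE 0.24, edgeR adjusted p = 0.00113) in GMP-MoP against cMoP and -0.67 (SE 0.20, edgeR adjusted p = 0.00762) in GMP-MoP against proNeu1. The GMP-MoP calls ended in DESeq2 (0.266) for cMoP, and without proNeu1 replicate 2 (0.0659), with loess offsets (0.0985) or in DESeq2 (0.181) for proNeu1. At 222.8 kb, chr13:20313256-20314175 had 7.99 and 6.24 CPM in GMP-MoP, 1.82 and 1.99 in proNeu2, 0.708 and 2.71 in proNeu1 and 23.6 and 23.8 in cMoP. The cMoP libraries lay above all others. This region was lower in proNeu1 than in cMoP (log2 fold change -3.72, SE 0.48, edgeR adjusted p = 6.93e-12) and in GMP-MoP than in cMoP (log2 fold change -1.75, SE 0.34, edgeR adjusted p = 0.000148), the second call ending in DESeq2 (0.385).

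Further along Elmo1, chr13:20349659-20350291 had no count in either cMoP library, with 5.81 and 2.27 CPM in GMP-MoP, 7.91 and 17.3 in proNeu2, 7.08 and 11.5 in proNeu1 and 0 and 0 in cMoP. Taking 3 counts over both cMoP libraries as the floor, it was at least 11.9-fold higher in proNeu1 than in cMoP (27 and 0 counts, edgeR adjusted p = 2.46e-08) and at least 4.8-fold higher in GMP-MoP than in cMoP (12 and 0 counts, edgeR adjusted p = 0.00328). The second call ended without GMP-MoP replicate 1 (0.097), without cMoP replicate 2 (0.0584) or in DESeq2 (0.267). A region nearer the far end of Elmo1, chr13:20458478-20459184, had 3.63 and 3.4 CPM in GMP-MoP, 1.82 and 0 in proNeu2, 0.708 and 0.678 in proNeu1 and 9.68 and 13.2 in cMoP. Its proNeu levels lay below all others, 16.3-fold lower in proNeu1 than in cMoP (95% exact counting interval 4.24 to 139, from 2 and 43 counts, edgeR adjusted p = 2.04e-06), a call that ended with loess offsets (0.243).

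**Figure D3:**
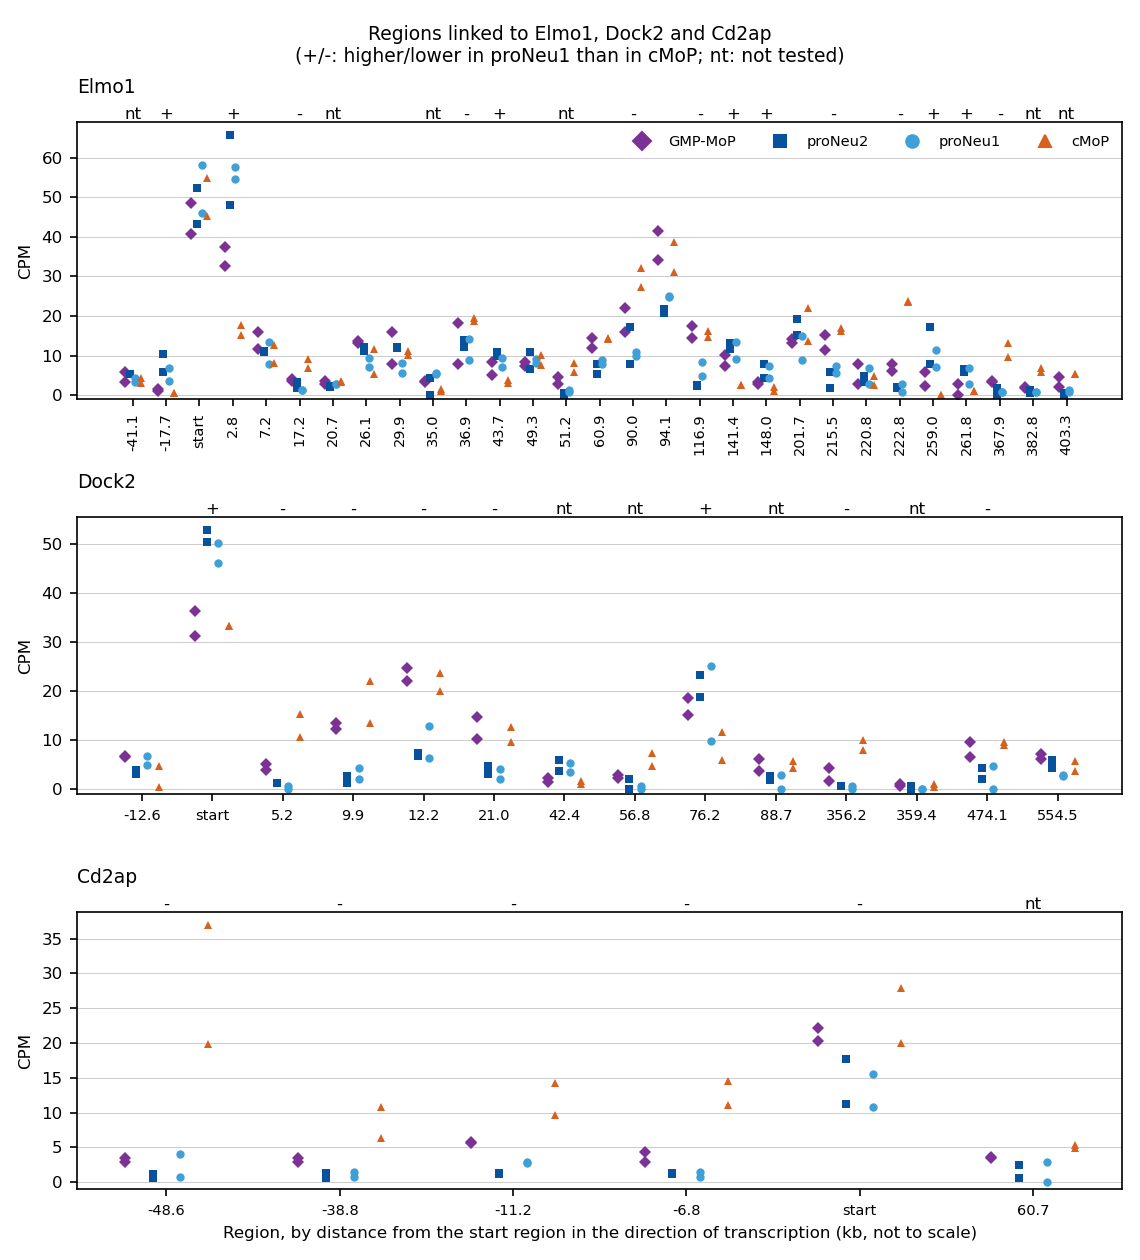
CPM of every region linked to Elmo1 (top), Dock2 (middle) and Cd2ap (bottom) in both libraries of each group, ordered by distance in kb from the start region along the gene and not to scale. Signs above mark regions higher or lower in proNeu1 than in cMoP, and nt those not tested. Dock2 regions at 5.2 to 21 kb are low in the proNeu groups while its start region is high, and all 5 tested Cd2ap regions are lower in proNeu1 than in cMoP.

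Membrane and adhesion linkers had 6 of 18 regions (33.3%) higher and 8 (44.4%) lower in proNeu1 against cMoP. The shares of all tested regions were 20.6% and 21.9%. These linkers had 0 higher and 6 (33.3%) lower in GMP-MoP against proNeu1, beside 11.6% and 12.5% of all. Cd2ap, the gene of an adaptor that joins receptors and capping protein to actin, was lower in proNeu1 than in cMoP at all 5 tested regions. The farthest, 47793 bp outside the gene (chr17:42924500-42925436), had 2.9 and 3.4 CPM in GMP-MoP, 1.22 and 0.664 in proNeu2, 0.708 and 4.07 in proNeu1 and 19.9 and 37 in cMoP. Both cMoP libraries lay above the other 6. The log2 fold change was -3.51 (SE 0.43, edgeR adjusted p = 8.67e-13) in proNeu1 against cMoP and -3.13 (SE 0.40, edgeR adjusted p = 6.12e-10) in GMP-MoP against cMoP. Both calls stood under every alternative run, and it was the single member region that DESeq2 called in GMP-MoP against cMoP. Cd2ap's start region (chr17:42875491-42877218) had 20.3 and 22.1 CPM in GMP-MoP, 17.6 and 11.3 in proNeu2, 15.6 and 10.8 in proNeu1 and 27.9 and 20.1 in cMoP. That start was lower in proNeu1 than in cMoP (log2 fold change -0.86, SE 0.29, edgeR adjusted p = 0.0109), a call that ended without proNeu1 replicate 2 (0.205), without cMoP replicate 1 (0.2) or in DESeq2 (0.127).

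Msn and Ezr encode moesin and ezrin, related proteins that fasten the cortex to the membrane, and their starts went opposite ways. The Msn start, on the X chromosome (chrX:96095532-96097581), had 47.2 and 52.7 CPM in GMP-MoP, 47.4 and 43.1 in proNeu2, 39 and 42 in proNeu1 and 68.3 and 63.9 in cMoP. The cMoP libraries lay above all others, and the start was lower in proNeu1 than in cMoP (log2 fold change -0.70, SE 0.18, edgeR adjusted p = 0.000749) under every alternative run. For Ezr the start region had 41.4 and 24.9 CPM in GMP-MoP, 53.5 and 61.1 in proNeu2, 43.2 and 54.3 in proNeu1 and 31.7 and 31.7 in cMoP. Ezr was higher in proNeu1 than in cMoP at this start (log2 fold change 0.62, SE 0.20, edgeR adjusted p = 0.00821), a call that ended without proNeu1 replicate 2 (0.139), with loess offsets (0.169), at a minimum count of 30 (0.0745) or in DESeq2 (0.166). Its region of highest mean CPM, 44532 bp outside the gene (chr17:6827312-6828714), had 47.9 and 44.8 CPM in GMP-MoP, 76.6 and 70.4 in proNeu2, 97.7 and 67.8 in proNeu1 and 48.9 and 30.1 in cMoP. There the proNeu libraries lay above the rest (proNeu1 against cMoP, log2 fold change 1.06, SE 0.18, edgeR adjusted p = 1.04e-07).

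Vcl and Tln1 encode vinculin and talin-1, which couple integrins to actin. The Vcl start (chr14:20927856-20929867), whose promoter is printed above, had 98 and 64.6 CPM in GMP-MoP, 157 and 165 in proNeu2, 122 and 139.7 in proNeu1 and 87.6 and 72.8 in cMoP. Vcl was higher in proNeu1 than in cMoP (log2 fold change 0.71, SE 0.14, edgeR adjusted p = 1.17e-05) under every alternative run, and lower in GMP-MoP than in proNeu1 (log2 fold change -0.71, SE 0.15, edgeR adjusted p = 7.25e-05), a call that ended without GMP-MoP replicate 2 (0.0722). Tln1 had 55.9 and 59 CPM in GMP-MoP, 81.5 and 99.6 in proNeu2, 80.7 and 102 in proNeu1 and 64 and 65.5 in cMoP at its start. Tln1 was higher in proNeu1 than in cMoP (log2 fold change 0.50, SE 0.16, edgeR adjusted p = 0.00532), a call that ended without proNeu1 replicate 2 (0.164), with loess offsets (0.477), at a minimum count of 30 (0.0813) or in DESeq2 (0.128), and lower in GMP-MoP than in proNeu1 (log2 fold change -0.67, SE 0.17, edgeR adjusted p = 0.000941), a call that ended without proNeu1 replicate 2 (0.0969), with loess offsets (0.0819) or in DESeq2 (0.0665).

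**Figure D4:**
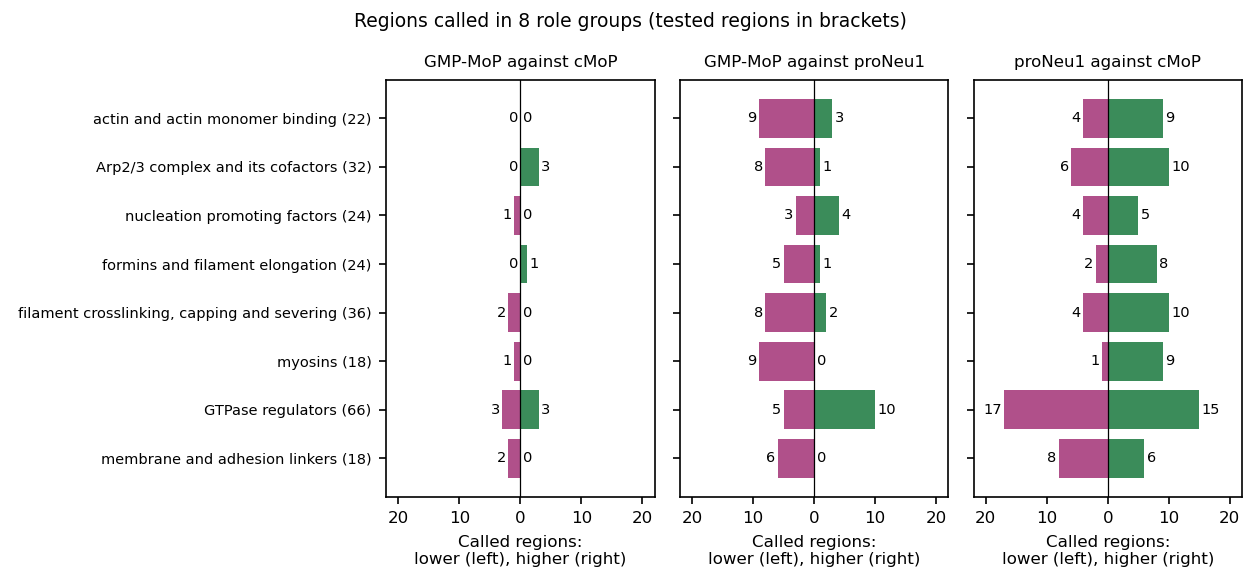
Number of member regions called lower (left of 0) and higher (right of 0) in 3 comparisons, for 8 role groups, with the number tested in brackets. Myosins have 9 regions higher and 1 lower in proNeu1 against cMoP, and GTPase regulators 15 and 17.

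GMP-MoP and cMoP differed at few member regions, and the 16 calls were spread over 10 members. Beside those given above, a region 46630 bp outside Actr3 (chr1:125345262-125346275) had 19.6 and 13.6 CPM in GMP-MoP, 28 and 14.6 in proNeu2, 20.5 and 24.4 in proNeu1 and 4.84 and 4.75 in cMoP. Both GMP-MoP libraries lay above those of cMoP (log2 fold change 1.75, SE 0.39, edgeR adjusted p = 0.00103), and the call ended without GMP-MoP replicate 1 (0.0574) or in DESeq2 (0.292). In the body of Arpc3, chr5:122396808-122397569 had 11.6 and 5.67 CPM in GMP-MoP, 10.3 and 6.64 in proNeu2, 12 and 6.1 in proNeu1 and 0 and 3.17 in cMoP. GMP-MoP was again above cMoP in both libraries (log2 fold change 2.32, SE 0.60, edgeR adjusted p = 0.00645), and this call ended without GMP-MoP replicate 1 (0.215), without cMoP replicate 1 (0.239) or in DESeq2 (0.526). A gene-body region of Diaph1 had 16 and 18.1 CPM in GMP-MoP, 8.51 and 10.6 in proNeu2, 11.3 and 13.6 in proNeu1 and 5.91 and 5.28 in cMoP. Diaph1 was higher in GMP-MoP than in cMoP there (log2 fold change 1.60, SE 0.37, edgeR adjusted p = 0.00193), a call that ended without GMP-MoP replicate 2 (0.0541) or in DESeq2 (0.423). A gene-body region of Wipf1 (chr2:73511871-73513796), named after its values were seen, had 13.8 and 22.1 CPM in GMP-MoP, 11.6 and 13.3 in proNeu2, 9.21 and 6.1 in proNeu1 and 31.7 and 39.6 in cMoP. The cMoP libraries lay above all others, with log2 fold changes of -0.95 (SE 0.24, edgeR adjusted p = 0.00642) in GMP-MoP against cMoP, a call that ended without GMP-MoP replicate 1 (0.195), without cMoP replicate 2 (0.206) or in DESeq2 (0.629), and -2.22 (SE 0.31, edgeR adjusted p = 1.65e-10) in proNeu1 against cMoP.

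Counts summed over all linked regions of a gene were tested in a fit of their own. In proNeu1 against cMoP, 19 of 47 members were higher and 10 lower, against 19.3% of 14839 genes higher and 21.7% lower. GMP-MoP against proNeu1 gave 7 higher and 19 lower, beside 14.8% and 13.7% of all genes. In GMP-MoP against cMoP, 0 were higher and 1, Cd2ap, lower, with 0.923% and 2.49% of all genes. In proNeu2 against proNeu1 edgeR and DESeq2 called 0 members, 5 had an unadjusted edgeR p under 0.05, and 0.0202% of all genes were higher and 0.317% lower. Calls in GMP-MoP against proNeu1 numbered 16 without GMP-MoP replicate 2 and 17 without proNeu1 replicate 2.

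Cd2ap had 42.1 and 45 summed CPM in GMP-MoP, 23.7 and 16.2 in proNeu2, 24.3 and 18.8 in proNeu1 and 93.2 and 104 in cMoP. Its sum was lower in proNeu1 than in cMoP (log2 fold change -2.19, SE 0.19, edgeR adjusted p = 1.23e-13) and in GMP-MoP than in cMoP (log2 fold change -1.17, SE 0.17, edgeR adjusted p = 1.57e-05), and higher in GMP-MoP than in proNeu1 (log2 fold change 1.02, SE 0.23, edgeR adjusted p = 0.000672). The calls given here for Cd2ap, Dock2 and Actn1 stood in all 16 alternative fits that kept the links. In a further fit, with regions linked only within 10 kb, no member was called in GMP-MoP against cMoP. Calls of single genes in the other comparisons were not recorded for that fit. Dock2 had 145 and 155 summed CPM in GMP-MoP, 98.8 and 111 in proNeu2, 86.2 and 109.9 in proNeu1 and 138 and 178 in cMoP and was lower in proNeu1 than in cMoP (log2 fold change -0.68, SE 0.13, edgeR adjusted p = 4.33e-05). Actn1 had 103 and 92.5 summed CPM in GMP-MoP, 173 and 194 in proNeu2, 165 and 174 in proNeu1 and 94.9 and 80.1 in cMoP. It stood at the other end, higher in proNeu1 than in cMoP (log2 fold change 0.95, SE 0.13, edgeR adjusted p = 2.36e-08). Actr2, Actr3, Arpc1b, Arpc2, Hcls1, Lcp1, Capg, Evl and Vav1 were among the 14 members called in no comparison, a count not taken over all genes. Actr3 for instance had 385 and 374 summed CPM in GMP-MoP, 373 and 342 in proNeu2, 359.9 and 354 in proNeu1 and 354 and 374 in cMoP.

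**Figure D5:**
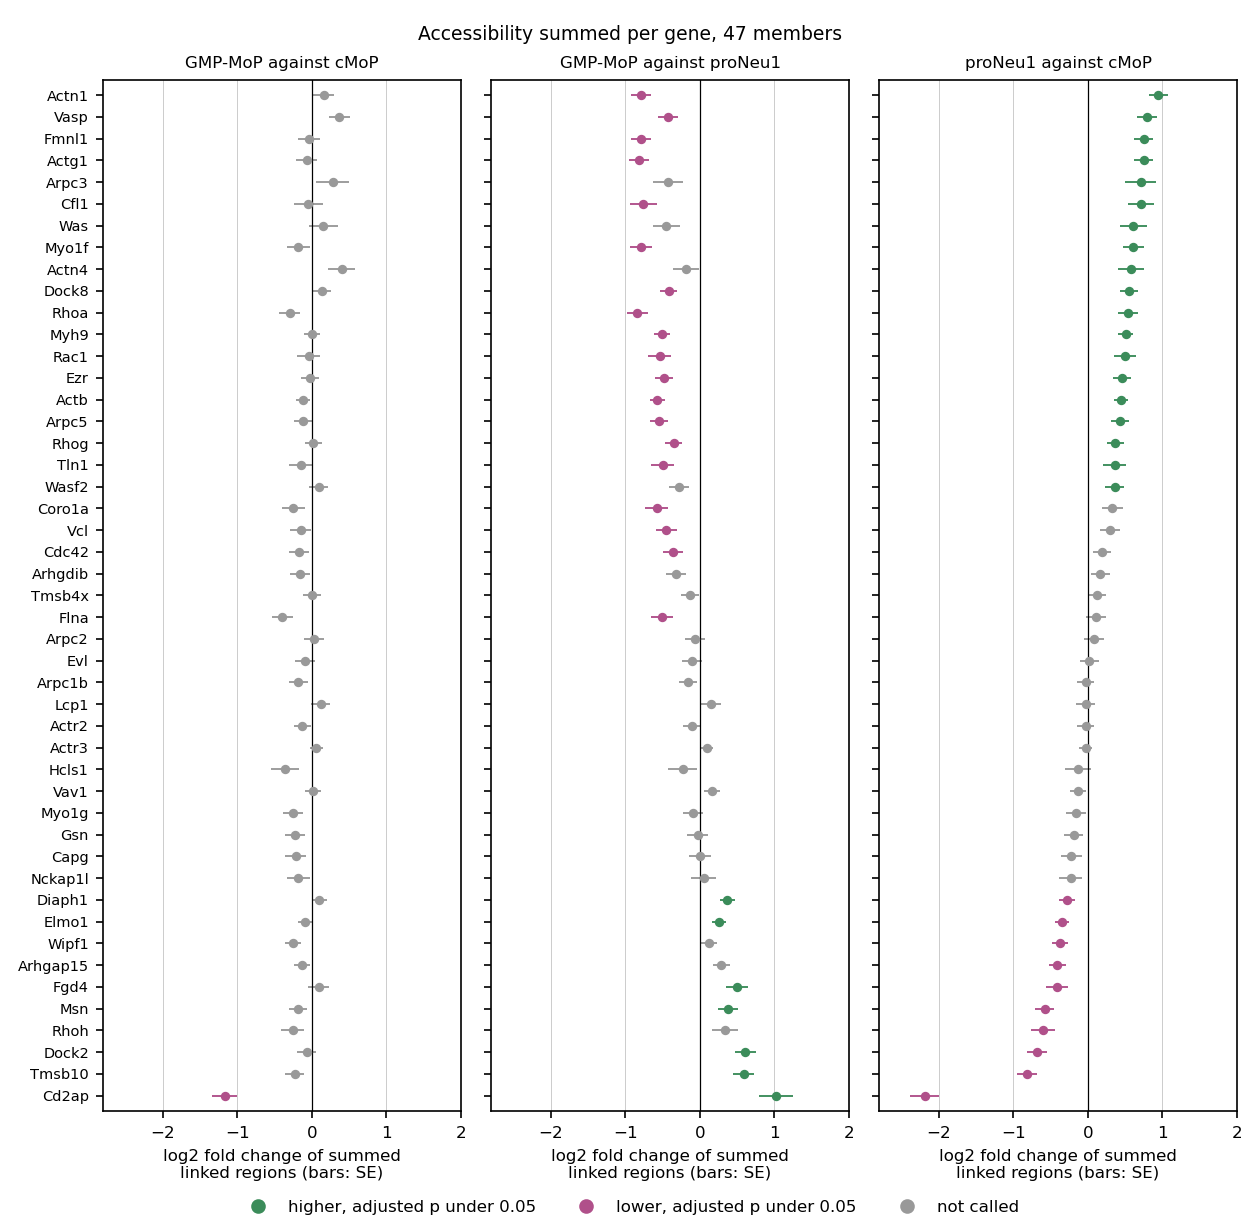
Log2 fold changes, with SE bars, of counts summed over the linked regions of each of 47 members in 3 comparisons, ordered by proNeu1 against cMoP. Actn1 is at the top (0.95) and Cd2ap at the bottom (-2.19), and Cd2ap is the member called in GMP-MoP against cMoP.

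Between proNeu2 and proNeu1, where no member was called, the median log2 fold change over 46 start regions was 0.13, and 5 had an unadjusted edgeR p under 0.05. The largest differences either way, picked out after the values were seen, were at the starts of Rhoh and Tmsb10. Rhoh had 19 ± 7.91 CPM in proNeu2 and 13.5 ± 0.0766 in proNeu1 (SD, n = 2 each, log2 fold change 0.47, edgeR adjusted p = 0.683). Tmsb10 had 21.6 ± 1.34 CPM in proNeu2 and 34.7 ± 3.02 in proNeu1 (SD, n = 2 each, log2 fold change -0.68, edgeR adjusted p = 0.299). Neither passed the test.

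A further list of 128 genes of the actin system, not members, was tested beside them. Of its 609 tested regions, 157 (25.8%) were higher and 128 (21%) lower in proNeu1 against cMoP, beside 20.6% and 21.9% of all regions. In GMP-MoP against proNeu1, 66 (10.8%) were higher and 103 (16.9%) lower, beside 11.6% and 12.5% of all. In GMP-MoP against cMoP, 11 (1.81%) were higher and 18 (2.96%) lower, near the 1.98% and 3.47% of all. On summed counts 35 of 121 genes (28.9%) were higher and 30 (24.8%) lower in proNeu1 against cMoP, beside 19.3% and 21.7% of all genes. The difference between members and this list was not tested.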

How the data were processed

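The authors deposited 1 file per library with whole-number read counts for the same regions, which are unnormalised judging by their totals. The tools listed, per the submitters' processing notes, are HOMER 4.11, edgeR 3.32.1 and Bowtie2 2.3.5.1, with build mm10. Their roles, the Tn5 shift and filters on duplicate and mitochondrial reads are not given. Read filters of this kind change counts at all regions.

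Regions were linked by distance to the nearest RefSeq protein-coding gene within 50 kb, which does not show regulation, and ties went to the gene whose end was closest. Counts were fitted over all 8 libraries with edgeR 4.0.16 (R 4.3.3, TMM, filterByExpr with a minimum count of 10, robust quasi-likelihood F test, Benjamini-Hochberg adjustment, call at 0.05), for regions and for counts summed per gene. Each SE was taken as the size of the log2 fold change over the square root of F. Alternatives were RLE factors, total counts, loess offsets (limma 3.58.1), no filter, a minimum count of 30, DESeq2 1.42.0, the 2 groups alone, a replicate block, other links and each library left out.

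Named regions were drawn from each member's region of highest mean CPM, its start region and the called regions of largest fold change. Of the last, the rule took 5 in each direction, or every called region where 5 or fewer were called. Not every such region is described. Those left out include regions of Elmo1, Gsn and Cd2ap called in GMP-MoP against cMoP. DESeq2 ended these calls (adjusted p 0.656, 0.815 and 0.683). Regions outside the rule are marked as picked after their values were seen. Members, lists and rules were chosen with earlier results of these data known. Counts for 1 role group are not reported here.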

Additional observations from a re-analysis of the deposited data

How the results depend on the processing

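Both the numbers of calls and their split by direction depended on the processing. Of the calls at member regions, 1 of 16 in GMP-MoP against cMoP, 15 of 80 in GMP-MoP against proNeu1 and 48 of 125 in proNeu1 against cMoP stood under every alternative that tested the region. The cause of the changes below was not tested, except that a higher minimum count tests fewer regions. The Actr3 start turned from 0.30 to -0.15 with loess offsets in proNeu1 against cMoP.

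A minimum count of 30 tested 130 member regions (255 in the fit reported), 267 regions of other actin genes (609) and 20114 of all regions (47506). The calls below are out of these smaller numbers. In GMP-MoP against cMoP it gave 7 member regions (16 in the fit reported), 11 regions of other actin genes (29) and 1093 of all regions (2590). In GMP-MoP against proNeu1 it gave 94 regions of other actin genes (169) and 6258 of all (11428), and in proNeu1 against cMoP 63 member regions (125), 122 of other actin genes (285) and 8635 of all (20162).

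DESeq2 called 1 member region, 0 of other actin genes and 37 of all in GMP-MoP against cMoP. In GMP-MoP against proNeu1 it called 19 member regions, 8 member starts, 37 regions of other actin genes, 2135 of all and 15 member gene sums (26). In proNeu1 against cMoP it called 62 member regions, 14 starts (27), 127 of other actin genes and 9242 of all, and in proNeu2 against proNeu1 0 of other actin genes (1) and 1 of all (36).

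Loess offsets gave 13 member starts in GMP-MoP against proNeu1 (24) and 14 in proNeu1 against cMoP (27), and in proNeu2 against proNeu1 1 member region (0), 2 of other actin genes and 76 of all. Links within 10 kb left 0 member gene sums in GMP-MoP against cMoP (1) and 0 regions of other actin genes in proNeu2 against proNeu1.

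Splits into higher and lower calls moved by over 10 percentage points in these fits. In GMP-MoP against cMoP, all regions (941 higher to 1649 lower in the fit reported) split 1070 to 953 with loess offsets and 33 to 4 in DESeq2, against the direction of the fit reported, and 558 to 625 without GMP-MoP replicate 1 and 400 to 416 without cMoP replicate 2. Member regions there (7 to 9) split 8 to 5 with loess offsets, 4 to 3 and 6 to 4 without GMP-MoP replicates 1 and 2 and 6 to 3 without cMoP replicate 2, and, the other way, 2 to 5 at a minimum count of 30 and 0 to 1 in DESeq2. Other actin genes (11 to 18) split 8 to 22 with RLE factors and 2 to 9 at a minimum count of 30.

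In GMP-MoP against proNeu1, total counts turned all regions (5513 to 5915) to 6893 to 4060 and other actin genes (66 to 103) to 80 to 74; RLE factors split all regions 5725 to 5502. Member regions (22 to 58) split 29 to 45 with total counts, 22 to 35 at a minimum count of 30, 1 to 18 in DESeq2 and 8 to 42 without proNeu1 replicate 1, and other actin genes 10 to 27 in DESeq2. Member starts (0 to 24) split 2 to 11 with loess offsets and 3 to 17 at a minimum count of 30, and gene sums (7 to 19) 3 to 18 without proNeu1 replicate 1. In proNeu1 against cMoP, starts (25 to 2) split 11 to 3 with loess offsets, and gene sums (19 to 10) 20 to 5 without proNeu1 replicate 1. In proNeu2 against proNeu1, all regions (4 to 32) split 27 to 49 and other actin genes 1 to 1 with loess offsets, and all regions 0 to 1 in DESeq2, 0 to 3 without proNeu2 replicate 1 and 2 to 6 without proNeu1 replicate 1. Total counts shifted the median log2 fold change of all regions by 0.13 in GMP-MoP against proNeu1 and by -0.10 in proNeu1 against cMoP.

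Leaving out 1 library at a time gave ranges. In GMP-MoP against cMoP these were 7 to 15 member regions, 0 to 1 starts, 12 to 31 regions of other actin genes and 816 to 2665 of all. In GMP-MoP against proNeu1 they were 33 to 78, 9 to 27, 77 to 168 and 4749 to 11368, with 16 to 26 member gene sums. In proNeu1 against cMoP they were 97 to 132, 21 to 28, 207 to 313 and 15223 to 22133, with 20 to 31 gene sums, and in proNeu2 against proNeu1 0 member regions, 0 to 1 of other actin genes and 0 to 38 of all. A group left with 1 library is assumed to vary like the others.

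With the replicate number as a block, 16, 81, 126 and 0 member regions were called in GMP-MoP against cMoP, GMP-MoP against proNeu1, proNeu1 against cMoP and proNeu2 against proNeu1, and 0, 25, 27 and 0 starts and 1, 28, 31 and 0 gene sums. Differences between replicates 1 and 2 correlated weakly between groups (from -0.011 to 0.0793). Replicate counts varied little beyond Poisson error (chi-square per degree of freedom 1.03 to 1.26), which keeps such correlations low. The values therefore cannot show whether the numbers pair the samples.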
